A study of Mus musculus with 4 samples.

Results

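The genes described here encode enzymes that degrade the extracellular matrix and the proteins that hold those enzymes in check: the matrix metalloproteinases Mmp2, Mmp9, Mmp14 and Mmp15, their tissue inhibitors Timp1, Timp2 and Timp3, urokinase (Plau), its receptor (Plaur) and the serine protease inhibitor Serpine2. They were chosen by symbol, and every probe set that the platform annotation assigned to exactly 1 of these genes was taken. Probe sets were listed for 8 of the 10 genes, out of 17097 named genes measured. Mmp15 and Serpine2 had no probe set listed in that annotation, which does not show that the array lacks them, and were not analysed here. The 8 genes had 18 probe sets, and a gene was represented by whichever of its probe sets had the highest mean.

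Expression was measured in B16F10, a pigmented and metastatic mouse melanoma cell line of C57BL/6 origin, on Affymetrix mouse genome array strips. Cells of 2 samples were treated with 2 µM plumbagin, a plant-derived naphthoquinone, for 24 h (plumbagin 1 and plumbagin 2). Cells of the other 2 samples received MilliQ water in place of the compound, 0 µM (control 1 and control 2), and no other genotype or agent was named. The labels do not say whether samples with the same treatment were separate cultures, so the tests measure the spread between these samples, which may be technical. All values are log2 expression values after the robust multi-array average (RMA), so a difference of 1 is a 2-fold difference, and the 4 arrays had medians between 4.32 and 4.39. The number of arrays, 2 per treatment, limits the precision. In RNA of a whole culture, fewer cells that express a gene and less of its RNA per cell cannot be told apart.

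Matrix metalloproteinases are zinc-dependent proteases, made as inactive precursors and blocked by TIMPs, which bind the active site. Mmp14 sits in the plasma membrane and cleaves collagen as well as the Mmp2 precursor, for which Timp2 acts as the bridge: Timp2 bound to one Mmp14 molecule presents the precursor to a free one. Mmp2 and Mmp9 are the gelatinases, which digest basement membrane collagen. Urokinase bound to its receptor Plaur turns plasminogen into plasmin at the cell surface, and Serpine2 (protease nexin 1) inhibits urokinase, plasmin and thrombin. In melanoma these genes are known mainly for their part in invasion through basement membrane and dermis.

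The pigment cell identity of the samples was checked with marker lists. All 8 melanocyte markers (Tyr, Tyrp1, Dct, Pmel, Mlana, Mitf, Sox10 and Slc45a2) lay above a background level on every array. That level, 5.05, was the 95th percentile of 41 odorant receptor (Olfr) genes, which were assumed silent in these cells. None of 7 fibroblast markers and none of 5 keratinocyte and epithelial markers had a mean above it, 0 in both lists. Among 7 macrophage and leukocyte markers 1 did (Cd14, mean 5.35), as did 1 of 5 endothelial markers (Kdr, mean 5.15), while Ptprc and Pecam1, which define those cell types, had means of 3.57 and 3.67.

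The comparison of treated with untreated cells asked which transcripts plumbagin altered. None of the 8 genes passed the test, 0 of 8 in both directions, with an adjusted p of 1 for each by limma. Over all 17097 genes the same test also called 0.0% higher and 0.0% lower. At an unadjusted p under 0.05, limma gave 0 of the 8 genes, against 0.257% of all genes higher and 0.731% lower. The differences of the 8 genes ran from -0.22 for Plaur to 0.10 for Mmp14, 3 above and 5 below 0, where 44.9% of all genes lay above and 55.1% below. Their median difference was -0.04, against -0.01 over all genes tested. For genes with a mean above background it was -0.12 in the 5 such members and -0.05 over all such genes.

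What separated the genes from one another was whether their signal stood above background. Mmp14, Timp1, Timp2, Timp3 and Plaur were above 5.05 on all 4 arrays. Mmp2, Mmp9 and Plau were below it on all 4 arrays. The share of 5 of 8 can be set beside 50.5% of all genes with a mean above that level and 48.4% with every array above it. With the highest Olfr mean, 5.93, as the level, 4 of the 8 remained above it and Plaur, with a mean of 5.93 that was just under, did not. A gene under background may be transcribed at a level these probes do not resolve.

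**Figure D1:**
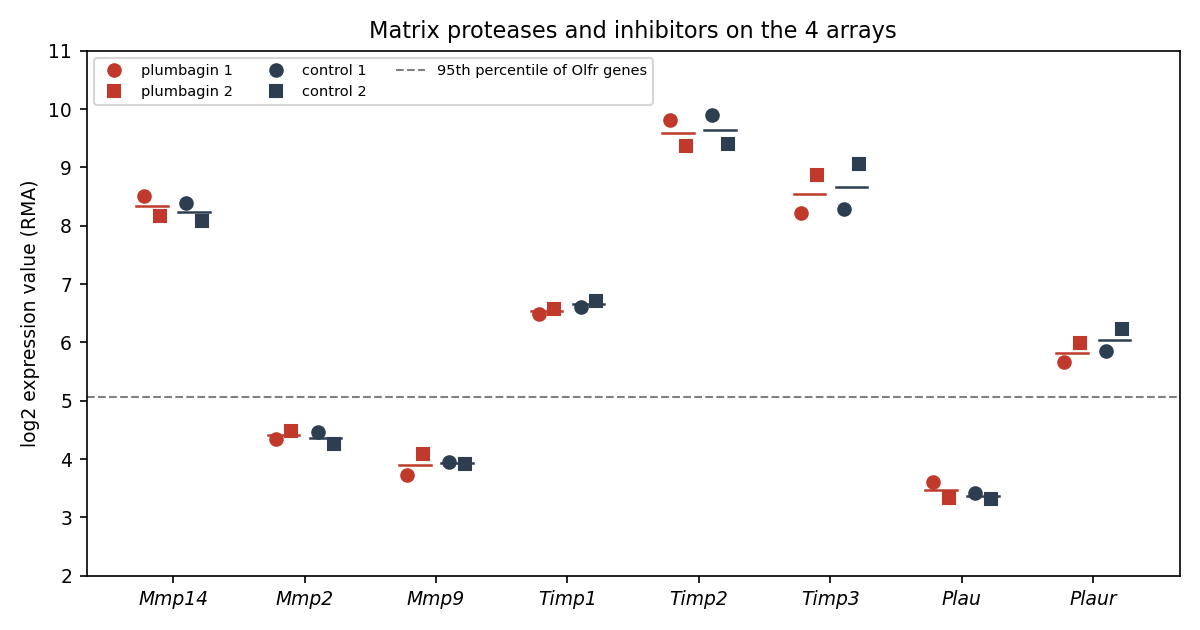
Log2 expression value (vertical axis) of the main probe set of each of the 8 genes on each array, with circles for arrays numbered 1, squares for arrays numbered 2, plumbagin left of control in each gene, and short lines for the mean of each treatment. The dashed line is the background level of 5.05: Mmp2, Mmp9 and Plau lie under it on all arrays, and the ranges of plumbagin and control overlap in every gene except Timp1. Heights of different genes come from different probes and are not comparable.

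The membrane-anchored protease gene Mmp14 had a clear signal. Its main probe set (1448383_PM_at) read 8.501 and 8.174 on plumbagin 1 and plumbagin 2, against 8.387 and 8.082 on control 1 and control 2. Each of the 2 treatments had 1 higher and 1 lower array, the higher being the array numbered 1, and the groups overlapped. The difference was 0.10 ± 0.17 (SE, n = 2 per group) with a 95% interval from -0.36 to 0.56 and a limma adjusted p of 1.

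A second Mmp14 probe set (1416572_PM_at), also above background on every array, gave the opposite sign. It read 5.44 and 5.86 on the plumbagin arrays, against 6.22 and 5.64 on the control arrays. Its difference was -0.28 ± 0.26 with a 95% interval from -0.98 to 0.43, so the sign of the Mmp14 difference depended on the probe set. When both probe sets were averaged, the gene differed by -0.09.

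The gelatinase genes stayed under the background level. Mmp2 (1416136_PM_at), the enzyme that Mmp14 activates, read 4.34 and 4.48 on the plumbagin arrays, against 4.46 and 4.26 on the control arrays. Mmp9 (1416298_PM_at), the inducible gelatinase, read 3.72 and 4.08 on the plumbagin arrays, against 3.94 and 3.92 on the control arrays. Both genes overlapped between treatments, with differences of 0.05 ± 0.11 for Mmp2 and -0.03 ± 0.15 for Mmp9 (SE). The other Mmp9 probe set (1448291_PM_at) had both plumbagin arrays, 3.30 and 3.25, below both control arrays, 3.37 and 3.35, around a mean of 3.32. Values this low carry no order that can be read as expression.

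The 3 TIMP genes were all above background on every array, and their main probe sets had differences below 0 that did not pass the test. Of all genes, 55.1% had a difference below 0, and the median difference of genes with a mean above background was -0.05. Timp1, which inhibits the gelatinases among others, read 6.49 and 6.58 on the plumbagin arrays, against 6.61 and 6.70 on the control arrays (1460227_PM_at). Both plumbagin arrays were below both control arrays, which made Timp1 the 1 gene of the 8 whose groups did not overlap. Over all genes, 15.2% had both plumbagin arrays below both control arrays and 10.2% had both above, so a separation of this kind was common on these arrays. The Timp1 difference was -0.12 ± 0.09 (SE, n = 2 per group), a 1.09-fold lower mean, with a 95% interval from -0.36 to 0.11 and a limma adjusted p of 1. It was -0.079 without plumbagin 1 and -0.080 without control 2.

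Timp2, the inhibitor that also assists Mmp2 activation, was read by 5 probe sets, all above background on all arrays. The main one (1460287_PM_at) read 9.81 and 9.37 on the plumbagin arrays, against 9.90 and 9.39 on the control arrays. As for Mmp14, the arrays numbered 1 were the high ones in both treatments. The difference was -0.06 ± 0.24 (SE), with a 95% interval from -0.71 to 0.59.

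The other 4 Timp2 probe sets did not repeat that split between arrays. The next brightest (1454677_PM_at) read 8.78 and 8.83 with plumbagin, against 8.98 and 8.69 in the controls. One of them (1420924_PM_at) had its higher values on the arrays numbered 2, 6.01 with plumbagin and 6.05 in the control, against 5.78 with plumbagin and 5.93 in the control on the arrays numbered 1. All 5 had differences below 0, from -0.11 to -0.03, each smaller in size than its standard error and none past the test. These probe sets read the same RNA samples and are not independent of one another.

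Timp3 encodes the inhibitor that binds to the matrix and also blocks ADAM17 and several ADAMTS proteases. It varied most over the 4 arrays of the 8 genes, by 0.85. Its main probe set (1419089_PM_at) read 8.21 and 8.87 on plumbagin 1 and plumbagin 2, against 8.28 and 9.06 on control 1 and control 2. Both arrays numbered 2 were well above both arrays numbered 1, whatever the treatment. The difference between treatments was -0.13 ± 0.35 (SE), with a 95% interval from -1.08 to 0.83, which includes a fall of 2-fold. This fit ignored the array number. With the number added to the fit as a block, the SE was 0.08 around the same difference. Whether the numbers pair the samples is not known. Of the genes with a mean above background, 3.76% varied as much as Timp3 or more within treatments (residual SD of 0.51).

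All 4 Timp3 probe sets had both arrays numbered 2 above both arrays numbered 1. Among genes with a mean above background, 28.2% showed that order and 28.6% the opposite one. The largest difference among the 18 probe sets came from the dimmest Timp3 probe set (1419088_PM_at), at -0.56 ± 0.42. It read 6.18 and 7.36 on plumbagin 1 and plumbagin 2, against 7.19 and 7.46 on control 1 and control 2, so that 1 array, plumbagin 1, was low and the other 3 were close. Without plumbagin 1 the difference of this probe set was 0.03, and that of the main Timp3 probe set was 0.20, or 0.26 without control 2. The other 2 probe sets, 1449335_PM_at and 1449334_PM_at, differed by -0.18 and -0.25, also without passing the test.

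**Figure D2:**
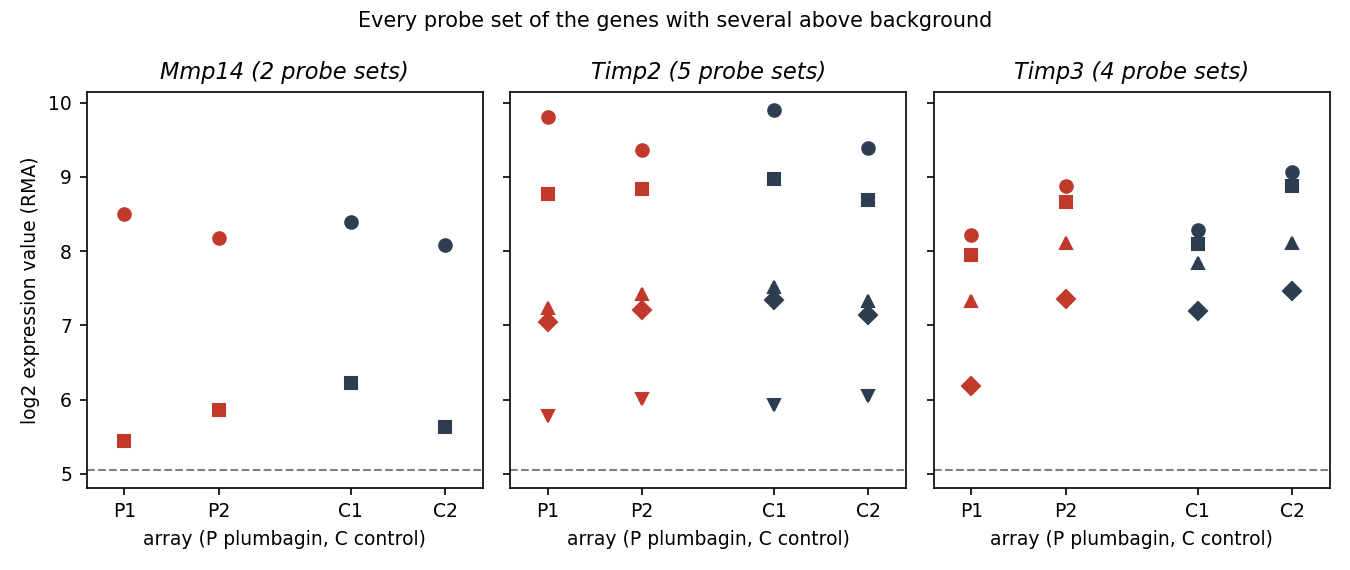
Log2 expression value (vertical axis) of every probe set of Mmp14, Timp2 and Timp3 on each array (P1 and P2, plumbagin 1 and 2; C1 and C2, control 1 and 2), 1 marker shape per probe set, with the background level of 5.05 dashed. All 4 Timp3 probe sets are higher on P2 and C2 than on P1 and C1, whereas the 5 Timp2 probe sets and the 2 Mmp14 probe sets follow no common order.

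The genes whose profile over the 4 arrays was closest to that of Timp3, by Euclidean distance between mean-centred log2 values among the 8637 genes above background, were 4921524J17Rik (distance 0.067), Serpinf1 (0.080) and Llph (0.082). Serpinf1, which encodes the secreted serpin PEDF, read 5.997 and 6.74 on the plumbagin arrays, against 6.17 and 6.92 on the control arrays.

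The sequence upstream of Timp3 is shown because this gene varied most between arrays, and that of Plaur because it held the 1 AP-1 motif found. Windows of 250 bases before the gene start were available from RefSeq (GRCm38.p6) for 7 of the 10 genes: Mmp14, Mmp15, Timp1, Timp2, Timp3, Plaur and Serpine2. They were searched on both strands for GC boxes, spelled GGGCGG, with overlapping matches counted. The AP-1 motif was spelled TGANTCA, which reads the same on both strands. The third motif searched on both strands was the TATA box, spelled TATAAA. Capitals mark the GC box in Timp3, 15 to 10 bases before the start, and the AP-1 motif in Plaur, 69 to 63 bases before the start. Both windows are on the + strand, at chr10:86300162-86300411 for Timp3 and chr7:24462233-24462482 for Plaur.
Timp3: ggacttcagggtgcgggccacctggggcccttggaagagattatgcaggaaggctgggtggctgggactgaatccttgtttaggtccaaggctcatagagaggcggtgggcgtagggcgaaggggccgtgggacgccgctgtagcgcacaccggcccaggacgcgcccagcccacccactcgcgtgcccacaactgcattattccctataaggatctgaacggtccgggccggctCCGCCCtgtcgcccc
Plaur: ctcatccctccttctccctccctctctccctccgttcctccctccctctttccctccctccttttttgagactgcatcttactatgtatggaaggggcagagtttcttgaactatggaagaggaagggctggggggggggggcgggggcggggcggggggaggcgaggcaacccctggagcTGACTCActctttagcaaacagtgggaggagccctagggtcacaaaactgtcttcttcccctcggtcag

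All 7 windows held at least 1 GC box, against 48.2% of the 17064 windows of genes measured here. Timp1, Timp2, Timp3 and Mmp15 had 1 each, Mmp14 had 2, Plaur had 3 and Serpine2 had 6. The AP-1 motif, found in Plaur alone among the 7 genes, occurred in 5.73% of all windows, and TATAAA, found in none of the 7, in 9.01%. In base composition the windows ranged from 54.4% G and C in Timp1 to 78.8% in Serpine2, around a median of 57.6% over all windows. A match of letters is a description and not evidence of a bound site.

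The urokinase genes differed from each other in detection. Plau (1422138_PM_at) read 3.60 and 3.32 on the plumbagin arrays, against 3.41 and 3.32 on the control arrays, all under the background level. Its difference was 0.10 ± 0.12 (SE), and a second probe set (1422139_PM_at) also lay under background. For Plaur, the receptor, the single probe set (1452521_PM_a_at) read 5.66 and 5.98 on plumbagin 1 and plumbagin 2, against 5.85 and 6.23 on control 1 and control 2.

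Plaur had the largest difference in size of the 8 genes, -0.22 ± 0.19 (SE, n = 2 per group), or a 1.17-fold lower mean with plumbagin. The groups overlapped, since plumbagin 2 was above control 1. Both arrays numbered 2 were above both arrays numbered 1, as for 28.2% of genes with a mean above background. The 95% interval ran from -0.73 to 0.28 and the limma adjusted p was 1. This fit ignored the array number, and with the number as a block the SE was 0.08. Whether the numbers pair the samples is not known. Each array moved the Plaur difference: it was -0.029 without control 2, -0.057 without plumbagin 1, -0.38 without plumbagin 2 and -0.41 without control 1. The Plaur mean lay 0.87 above the background level.

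**Figure D3:**
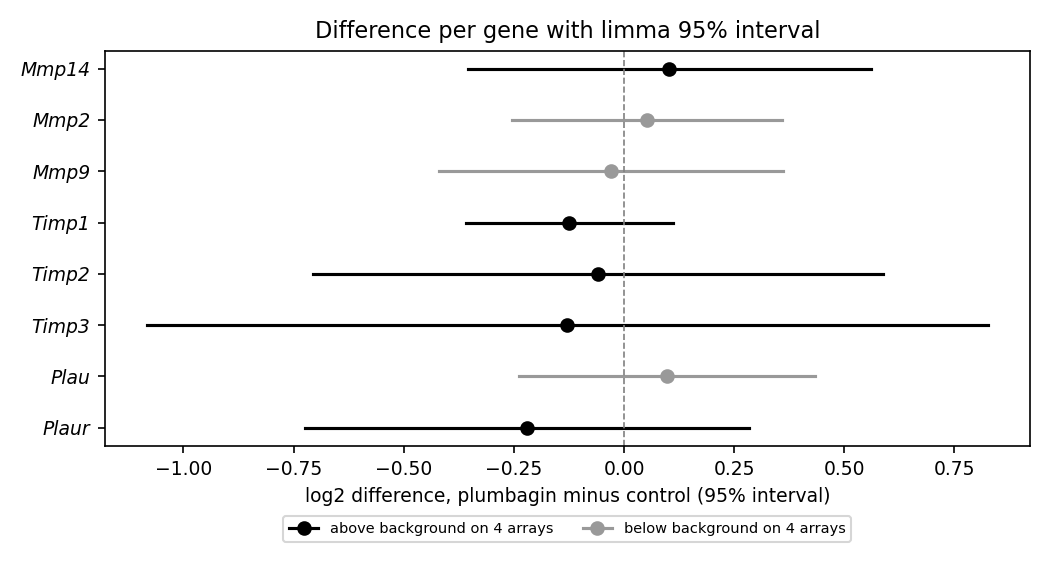
Log2 difference, plumbagin minus control, for each of the 8 genes (points) with its 95% interval from limma (lines); grey marks genes below background on all arrays. All 8 intervals include 0, and the widest, that of Timp3, runs from -1.08 to 0.83.

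Other genes of matrix degradation were examined as 6 further lists, and none of their measured members passed the test in either direction (0 higher and 0 lower in each list by limma, and 0 at an unadjusted p under 0.05). Over all 17097 genes limma also called 0.0%, and 0.257% higher and 0.731% lower had an unadjusted p under 0.05. The counts of genes above background that follow can be set beside 50.5% of all genes. Of 17 other MMP, TIMP and MMP-regulating genes, 3 had a mean above background: Mmp23, Reck, a membrane-anchored MMP inhibitor, and Bsg, the MMP inducer basigin. The interstitial collagenases, stromelysins and matrilysin (Mmp1a, Mmp1b, Mmp3, Mmp7, Mmp8, Mmp10 and Mmp13) and the macrophage elastase gene Mmp12 all had means under 5.05. The list had a median difference of -0.01. Bsg differed by -0.17 ± 0.14 and Mmp23 by -0.08 ± 0.08 (SE). The Mmp23 mean, 5.20, was under the highest Olfr mean of 5.93.

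In the plasminogen system, 4 of 12 measured genes were above background. These were the plasminogen-binding surface proteins Plgrkt, Anxa2 and S100a10 and the endocytic receptor Lrp1, which clears urokinase bound to inhibitors. Lrp1 read 5.65 and 5.93 on the plumbagin arrays, against 5.56 and 5.62 on the control arrays, a difference of 0.20 ± 0.13. That difference was 0.093 with its probe sets averaged, 0.058 without plumbagin 2 and 0.34 without plumbagin 1. The Lrp1 mean, 5.69, was under the highest Olfr mean of 5.93. Plgrkt differed by -0.17 ± 0.17. Plasminogen itself (Plg), tissue plasminogen activator (Plat) and the inhibitor Serpinb2 were under background, with means of 3.58, 4.58 and 2.98. The list's median difference was -0.07. In 6 of its 12 genes both plumbagin values were under both control values, against 15.2% of all genes, but 0 of those 6 genes had a mean above background.

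Among 16 ADAM and ADAMTS genes, membrane and secreted relatives of the MMPs, 10 were above background and the median difference was 0.03. Adam10, a sheddase of cell surface proteins, had the smallest unadjusted p of the 6 lists, 0.0623 by limma with an adjusted p of 1. It read 9.44 and 9.37 on the plumbagin arrays, against 9.18 and 9.23 on the control arrays, a difference of 0.20 ± 0.08 and without overlap, as for 10.2% of all genes in that direction. That difference depended on the probe set, since Adam10 differed by 0.038 ± 0.097 when its 3 probe sets were averaged. Adamts12 differed by 0.15 ± 0.11, by 0.053 with its probe sets averaged, by 0.042 without plumbagin 1 and by 0.26 without plumbagin 2. The Adamts12 mean, 5.31, was under the highest Olfr mean of 5.93. Adam17, a target of Timp3, read 6.926 and 6.921 with plumbagin, against 7.107 and 6.932 in the controls, a difference of -0.10 ± 0.10.

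The lysosomal cathepsins and their inhibitors had 11 of 16 members above background and a median difference of -0.06. The median of those 11 was -0.07, against -0.05 over all genes with a mean above background. Their members with the smallest p above background were Ctsz (-0.17 ± 0.14) and Lgmn, the asparaginyl protease legumain (-0.22 ± 0.19). Without plumbagin 1, Ctsz differed by -0.0088 and Lgmn by -0.0072, and without plumbagin 2 by -0.34 and -0.44. Lgmn also moved with the controls, to -0.098 without control 1 and -0.35 without control 2. Of 16 other membrane and matrix-degrading enzymes and inhibitors, 5 were above background, the median difference was 0.02, and Tfpi and Hyal1 differed by 0.07 ± 0.09 and 0.07 ± 0.13. Of 15 matrix substrates 9 were above background, among them the basement membrane genes Col4a1, Col4a2, Lamb1, Lamc1, Hspg2 and Nid1, with a median difference of -0.01. Nid1 and Lamb1 differed by -0.22 ± 0.14 and -0.12 ± 0.11, by -0.077 and -0.022 without plumbagin 1, and by -0.36 and -0.23 without plumbagin 2. Interstitial collagen genes Col1a1 and Col1a2, which also stand in the fibroblast marker list, had means of 3.43 and 3.27.

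**Figure D4:**
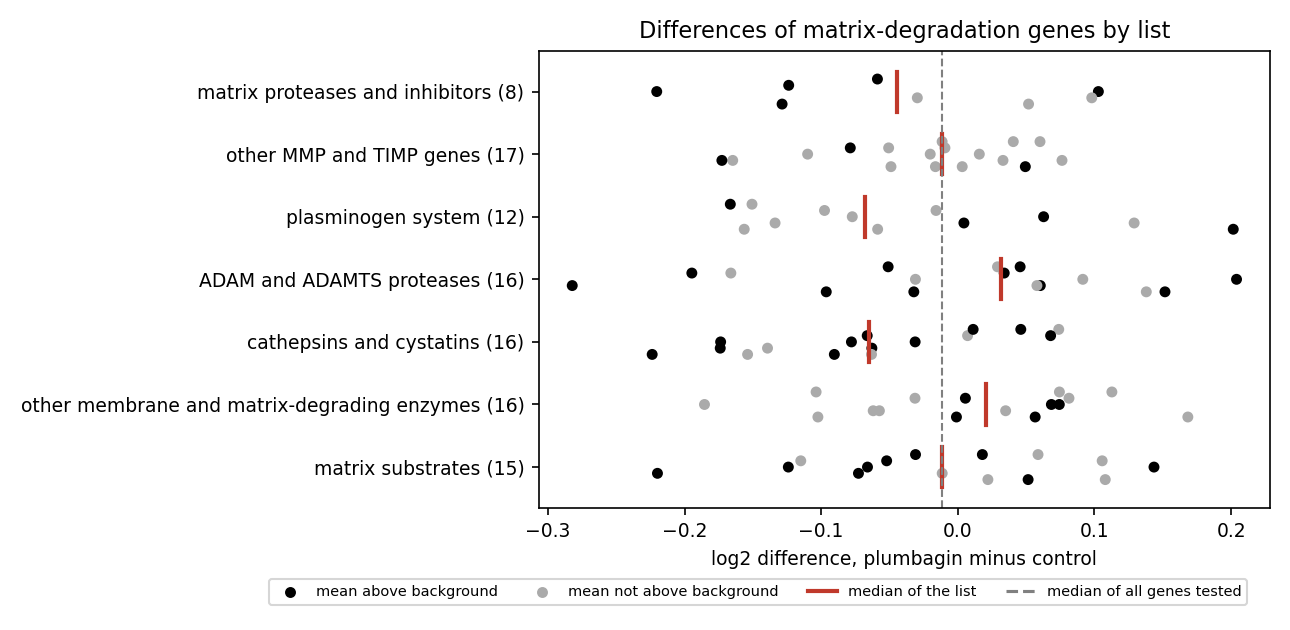
Log2 difference, plumbagin minus control (horizontal axis), of each measured gene in the 8 matrix proteases and inhibitors and in the 6 further lists, with the number of measured genes in brackets. Black points are genes with a mean above background, grey points the rest, red bars list medians, from -0.07 to 0.03, and the dashed line the median of all genes, -0.01.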

How the data were processed

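Biotin-labelled copies of total RNA from B16F10 cells were hybridised to Affymetrix mouse genome array strips, each array holding 1 sample, per the labels' protocols. The files hold the authors' log2 expression values, a value for each probe set on each array. RMA, Transcriptome Analysis Console and Affymetrix Expression Console are named in the submitters' processing notes; their versions and any genome build are not given in the sources used here. Because RMA makes the arrays' distributions alike, a shift shared by most genes would be removed. Of 45141 probe sets, 28898 had 1 gene symbol in the platform annotation, which can be out of date. Another 551 had several and 15692 had none, control probe sets included, and both kinds were left out. Symbols were updated by Entrez number against RefSeq (GRCm38.p6), which left 17097 genes.

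Groups came from the sample titles. Differences over all genes were fitted with limma 3.58.1 (lmFit, eBayes) in R 4.3.3, with treatment as the single term. Tests were two-sided, p-values were adjusted by the Benjamini-Hochberg method, and the threshold was 0.05. Single probe sets were tested over all 28898. The members and lists were chosen with earlier results of these data known. Named were the members, each of their probe sets, in each other list the 2 genes above background with the smallest p, and the 3 genes nearest to the most variable member. Reck, Adam17, the marker genes and the genes named for lying above or under background fall outside this rule. The code was tested on simulated data.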

Additional observations from a re-analysis of the deposited data

How the results depend on the processing

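No gene or probe set named here passed an adjusted p of 0.05 in limma under any alternative, and 0 of all genes did so with probe sets averaged, every probe set tested on its own, genes under background left out, quantile normalization repeated, arrays centred on their medians, cyclic loess, eBayes with a trend or robust, or with 1 array left out. The genes with an unadjusted p under 0.05 numbered 169 in the comparison as reported and between 25 and 973 under the alternatives, with 973 without plumbagin 2, 790 without control 2, 64 without control 1, 56 without plumbagin 1 and 25 among genes above background. With the replicate number as a block, 0 genes passed and 434 of 17097 had an unadjusted p under 0.05. Arrays of the same number deviated together (correlation of deviations 0.54 over all genes), but 2 pairs do not show that the numbers pair the samples. With that block, Plaur was the 1 of 8 members with an unadjusted p under 0.05, beside the 434 of 17097 genes. Its SE was 0.08 (limma unadjusted p = 0.0486, adjusted p = 0.919). Without the block, 0 of 8 members had such a p. The SE of Timp3 with the block was also 0.08 (limma adjusted p = 0.919).

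Of 357 values of the 30 genes and probe sets followed, 333 kept their sign and 24 turned, 21 of them with 1 array left out. The cause was not tested. The 333 include values that could not turn. Testing every probe set, leaving out genes under background, the eBayes options and the block changed the test and not the difference. Averaging changed nothing for a gene with a single probe set. With all 4 arrays, Mmp14 turned to -0.088 with its probe sets averaged, and the Timp2 probe set 1454677_PM_at to 0.0037 with repeated quantile normalization and to 0.027 with cyclic loess. With 1 array left out, the differences ranged from -0.050 to 0.15 for Mmp2, -0.21 to 0.15 for Mmp9, -0.061 to 0.27 for Mmp14, -0.31 to 0.19 for Timp2, -0.52 to 0.26 for Timp3, -0.040 to 0.24 for Plau, -0.35 to 0.0064 for Bsg, -0.38 to 0.043 for Plgrkt and -0.073 to 0.21 for Hyal1. They ranged from -0.57 to 0.015 for the Mmp14 probe set 1416572_PM_at, from -0.17 to 0.11, -0.20 to 0.00083 and -0.21 to 0.023 for the Timp2 probe sets 1454677_PM_at, 1433662_PM_s_at and 1420924_PM_at, and from -0.56 to 0.21, -0.64 to 0.14 and -1.14 to 0.032 for the Timp3 probe sets 1449335_PM_at, 1449334_PM_at and 1419088_PM_at. They kept their sign for Timp1 (-0.17 to -0.079), which without overlap could not turn, and for Plaur (-0.41 to -0.029). Of the 8 members, 5 were above background, with 4 against the Olfr maximum, 7 against the Olfr median, and 5 under each other alternative tried. Where 1 array was left alone in its treatment, its spread was taken from the other treatment. Signals near background limit what Mmp2, Mmp9 and Plau can show.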
